A study of Mus musculus with 6 samples.

Results

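The genes described here are 10 protein-coding genes picked from earlier results of these data because their RNA was lower in Adcy3 knockout brown fat than in control brown fat. They are Ppp1r12b, Speg, Svil, Ston2, Tacc2, Limch1, Ank3, 1700025G04Rik, Car3 and Net1, 10 of 54385 gene entries in the deposited count table and 10 of the 14767 that passed the filter on low counts. Their difference between genotypes chose them, so it is given as a description, and calls of that difference restate the choice. The question asked of each gene was whether it was also low in knockout library 1, which kept much skeletal muscle RNA, or whether it followed the order of the muscle RNA.

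Polyadenylated RNA was sequenced in 6 libraries from interscapular brown fat of C57BL/6N mice, fed a chow diet for 20 weeks and held at 5 °C for 24 hours before collection. The 3 knockout libraries came from mice with homozygous floxed Adcy3 and 1 Adipoq-Cre allele (Adcy3-FL/FL/Adipoq-wt/cre), a transgene driven by the adiponectin promoter that recombines floxed DNA in adipocytes and leaves the other cells of the depot unrecombined. The 3 control libraries came from mice with the same floxed alleles and no Cre (Adcy3-FL/FL/Adipoq-wt/wt), so floxed alleles and cold exposure were common to all 6 libraries. Adcy3 encodes adenylyl cyclase 3, which makes cyclic AMP. The series design text names another depot, 4 replicates and no cold, and the sample labels were used here.

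Brown fat lies against the muscles of the shoulder, so a dissected depot can hold muscle fibres besides adipocytes, vessels and connective tissue. By their known roles 5 of the 10 genes (Ppp1r12b, Speg, Svil, Limch1 and Ank3) belong to the actin and myosin cytoskeleton or the membrane skeleton, which muscle and other cells both use. Ppp1r12b encodes a targeting subunit of myosin phosphatase, the enzyme that removes phosphate from myosin light chains, and is best known from striated muscle. Speg is a kinase of the titin and obscurin group that is needed at the triads of striated muscle. Svil encodes supervillin, a membrane-bound relative of gelsolin that binds actin and myosin II and has a muscle form called archvillin. Limch1 binds actin stress fibres and non-muscle myosin II. Ank3 encodes ankyrin-G, which ties ion channels and adhesion proteins to the spectrin skeleton. Ston2 encodes stonin 2, an endocytic adaptor, Tacc2 a coiled-coil protein of the centrosome and microtubules, and Net1 an exchange factor that activates RhoA. Car3 encodes carbonic anhydrase 3, which is abundant in adipocytes and in slow muscle fibres. The files and annotation give no role for 1700025G04Rik.

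Promoter sequences were compared because the genes were low together and because MEF2, a transcription factor family active in muscle, and factors that bind cyclic AMP response elements recognise short DNA motifs. RefSeq windows (GRCm38.p6) from 250 bases before to 50 after a transcript start were matched for 7 of the 10 genes, at 15 starts; Svil, Ank3 and Car3 were not matched. Which start was used in these libraries cannot be read from counts per gene. A MEF2 site was found on either strand in 3 of the 15 windows (Speg, Limch1 and Net1) and in 3.19% of all 32851 windows. The letters TGACG, the core of the cyclic AMP response element, were found on either strand in 4 windows (Ppp1r12b, Tacc2, Limch1 and Net1), against 20.8% of all windows. The full element TGACGTCA, which contains TGACG, was in 0 of the 15 and 1.79% of all. The CArG box, bound by serum response factor, was in 0 and 1.63%, and the E-box CANNTG was in 13 and in 72.3% of all. The 250 bases before the start are printed for the 3 genes with a MEF2 site (in capitals) and for Ppp1r12b with its TGACG in capitals, all 5′ to 3′ on the strand of the gene. The windows are chr1:75375047-75375296 (plus) for Speg, chr5:66745639-66745888 (plus) for Limch1, chr13:3893582-3893831 (minus) for Net1 and chr1:134955941-134956190 (minus) for Ppp1r12b.
Speg: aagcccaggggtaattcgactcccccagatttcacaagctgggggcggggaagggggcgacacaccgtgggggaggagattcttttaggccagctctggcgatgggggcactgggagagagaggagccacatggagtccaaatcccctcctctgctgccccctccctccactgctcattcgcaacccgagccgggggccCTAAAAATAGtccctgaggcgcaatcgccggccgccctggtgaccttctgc
Limch1: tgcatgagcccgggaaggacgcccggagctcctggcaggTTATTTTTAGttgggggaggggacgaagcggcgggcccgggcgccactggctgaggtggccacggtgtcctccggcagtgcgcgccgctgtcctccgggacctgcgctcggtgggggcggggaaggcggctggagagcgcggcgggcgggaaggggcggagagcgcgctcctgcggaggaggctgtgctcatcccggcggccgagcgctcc
Net1: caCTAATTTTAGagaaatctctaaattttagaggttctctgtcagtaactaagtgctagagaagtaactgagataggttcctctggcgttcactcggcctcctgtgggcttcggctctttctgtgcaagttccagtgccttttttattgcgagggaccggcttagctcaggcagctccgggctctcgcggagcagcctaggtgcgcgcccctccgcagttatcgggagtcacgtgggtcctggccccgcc
Ppp1r12b: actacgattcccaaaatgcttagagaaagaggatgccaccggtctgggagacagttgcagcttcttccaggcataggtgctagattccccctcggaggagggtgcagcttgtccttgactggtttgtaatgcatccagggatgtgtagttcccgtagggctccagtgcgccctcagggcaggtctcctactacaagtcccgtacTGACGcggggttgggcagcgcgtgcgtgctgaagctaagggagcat
Counted from the transcript start, the MEF2 letters began at -51 in Speg, -211 in Limch1 and -248 in Net1, and TGACG began at -46 in Ppp1r12b. Speg and Limch1 were low in every knockout library with the highest value in knockout library 1, while Net1 had its lowest value there, as described below, so the 3 genes with the motif did not share 1 order.

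The libraries held between 13956786 and 17538044 estimated counts. Adcy3 was measured at 21.9, 30.3 and 24.0 counts per 1000000 (CPM) in the knockouts, numbered 1 to 3, against 135, 169 and 158 CPM in control libraries 1 to 3, which matches the labels. The 20 skeletal muscle markers made up 0.926%, 0.0710% and 0.00939% of counts in knockout libraries 1 to 3, against 2.18%, 1.95% and 1.65% in control libraries 1 to 3. Every knockout library was below every control (p = 0.1 in an exact permutation test, two-sided, which is the least that 3 against 3 can give). On the CPM scale their sum was 52.3%, 3.87% and 0.523% of the control mean in knockout libraries 1 to 3. Myh4, a fast myosin heavy chain, stood at 1268, 147 and 6.999 CPM in knockouts and at 4396, 4279 and 2580 CPM in controls. Acta1, skeletal actin, stood at 1793, 91.6 and 5.33 CPM in knockouts and at 3025, 2821 and 2525 CPM in controls. Atp2a1, the calcium pump of fast fibres, stood at 1171, 95.04 and 4.90 CPM in knockouts and at 2754, 2719 and 2384 CPM in controls. Adipocyte markers were present in all libraries, and their summed CPM was 132%, 105% and 112% of the control mean in knockout libraries 1 to 3. Of these 10 markers 8 had a positive and 2 a negative log2 fold change. The 2 were Cfd, at 71.9%, 43.7% and 38.1% of the control mean in the same libraries, and Slc7a10, at 59.2%, 61.7% and 61.3%. In bulk tissue, fewer cells of a type and less RNA per cell cannot be told apart.

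All 10 genes were lower in each knockout library than in any control library. Across all tested genes 10.8% showed that separation, and because the genes were chosen for it nothing is read from the 10 of 10. Every one of the 30 values in knockouts was at or under 60% of the control mean, a limit set after the values were seen, and 3.38% of tested genes met it in all 3 knockout libraries. At a limit of 50% the number was 8 of 10, all but Car3 and Net1, against 1.82%. Relative to the control mean the 10 genes ranged between 26.0% and 52.2% in knockout library 1 (median 39.9%), between 11.3% and 49.9% in knockout library 2 (median 28.3%) and between 12.7% and 56.4% in knockout library 3 (median 27.2%). The median over all tested genes was 98.1%, 99.5% and 99.3% in the same libraries. Their median log2 fold change was -1.61, against 0.01 for all tested genes. In knockout library 1 alone, 10 of 10 were at or under 60%, against 10.2% of tested genes, and in libraries 2 and 3 together 10 of 10 were, against 8.15%.

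**Figure D1:**
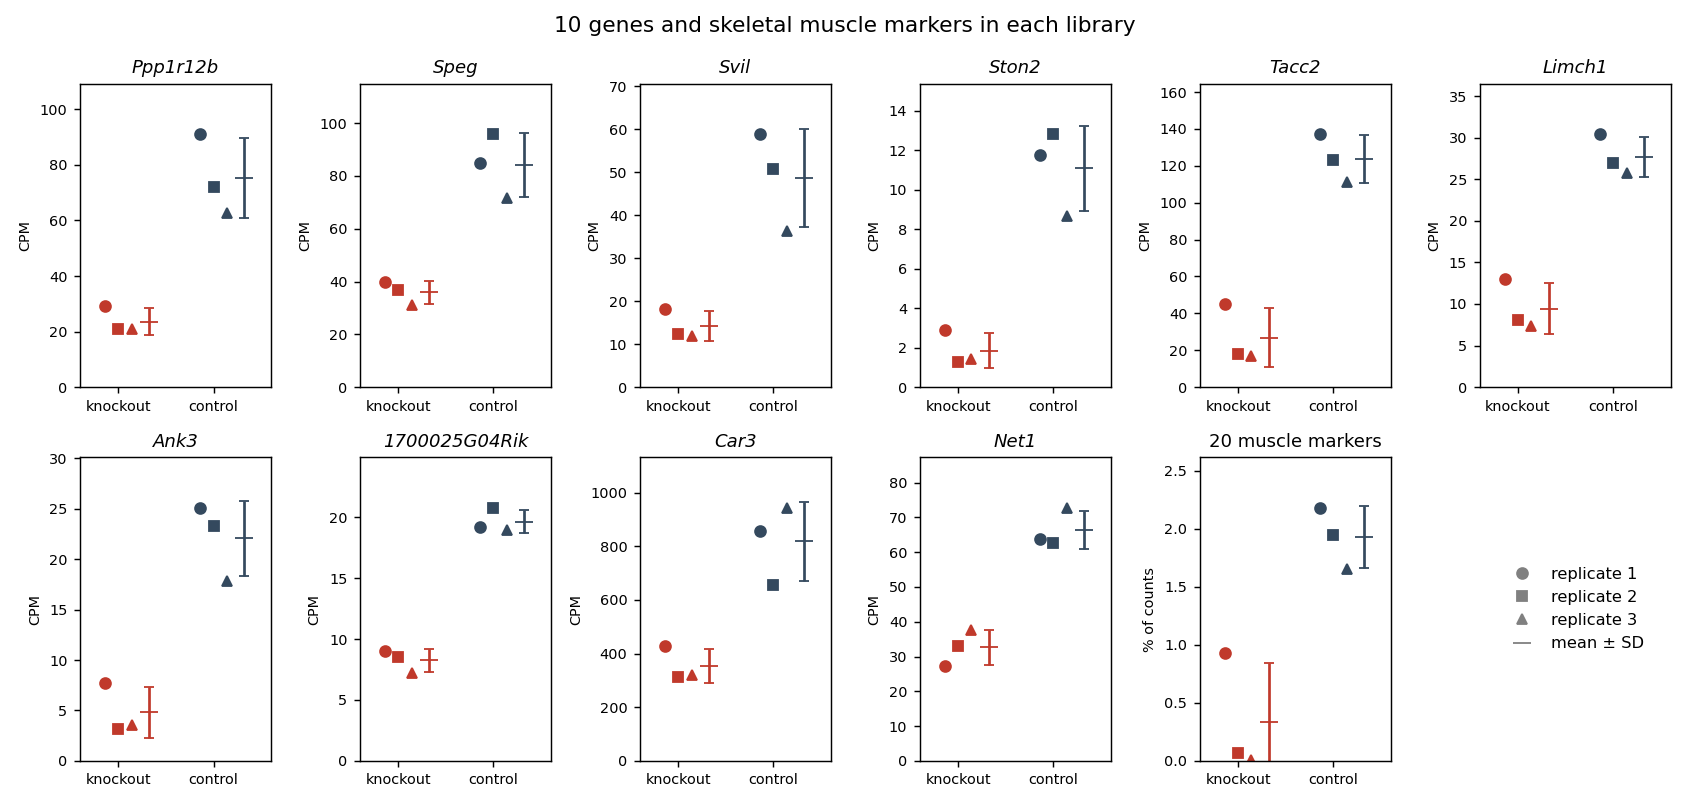
CPM of each of the 10 genes, and the summed share of 20 skeletal muscle markers in percent of counts, in the 3 knockout (red) and 3 control (blue) libraries. Points are single libraries with the shape giving the replicate number, and bars are mean ± SD (n = 3, with the lower muscle bar ending at the axis); every red point of a gene lies below every blue point, while the muscle share of knockout 1 (0.926%) is far above those of knockouts 2 and 3.

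Among the genes of contractile tissue, Ppp1r12b (ENSMUSG00000073557, GRCm38 chromosome 1, 134754658 to 134955942, minus strand) had 29.2, 20.8 and 20.9 CPM in knockout libraries 1 to 3, against 91.1, 71.9 and 62.8 CPM in control libraries 1 to 3. The highest knockout value was less than the lowest control value, and knockouts 2 and 3 were level. Means were 23.6 ± 4.80 CPM in knockouts and 75.3 ± 14.4 CPM in controls (SD, n = 3 each). The log2 fold change from edgeR was -1.67 ± 0.19 (SE). An exon of Gm28892 on the opposite strand overlaps this gene by up to 335 bases, and it averaged 0.432 estimated counts a library against 807 for Ppp1r12b. Speg (ENSMUSG00000026207, chromosome 1, 75375297 to 75432320, plus strand) stood at 39.8, 36.9 and 31.1 CPM in knockouts, against 84.7, 95.8 and 71.7 CPM in controls. Its knockout values were among the most even of the 10, with library 1 at 1.17 times the mean of libraries 2 and 3. The log2 fold change of Speg was -1.23 ± 0.15 (SE). Svil (ENSMUSG00000024236, chromosome 18, 4920540 to 5119299, plus strand) stood at 18.3, 12.4 and 11.997 CPM in knockouts, against 58.9, 50.7 and 36.4 CPM in controls. It had the widest control spread of the 10 genes (SD 23.3% of the mean) and a log2 fold change of -1.78 ± 0.23 (SE). In its order over the 6 libraries Svil matched the summed muscle markers, with knockouts 2 and 3 near level.

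Of the genes of the membrane skeleton and the actin network, Ank3 (ENSMUSG00000069601, chromosome 10, 69398773 to 70027438, plus strand) stood at 7.72, 3.13 and 3.57 CPM in knockouts, against 25.1, 23.3 and 17.9 CPM in controls. Knockout library 1 was at 2.30 times the mean of the other two, and still below the lowest control library. Its log2 fold change was -2.20 ± 0.34 (SE). Limch1 (ENSMUSG00000037736, chromosome 5, 66745827 to 67057158, plus strand) stood at 12.9, 8.02 and 7.37 CPM in knockouts, against 30.4, 26.9 and 25.7 CPM in controls. It kept the order of the muscle markers in all 6 libraries, over a far smaller range, with a log2 fold change of -1.55 ± 0.22 (SE).

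Of the adaptor and microtubule proteins, Ston2 (ENSMUSG00000020961, chromosome 12, 91633009 to 91788387, minus strand) had the largest difference. It stood at 2.88, 1.25 and 1.41 CPM in knockouts, against 11.7, 12.8 and 8.68 CPM in controls. These values rest on few reads, 42.5, 19.1 and 23.7 estimated counts in knockouts against 199, 223 and 130 in controls. For Ston2 the log2 fold change was -2.60 ± 0.33 (SE), which restates the choice of the gene and does not offset the few reads. Tacc2 (ENSMUSG00000030852, chromosome 7, 130577438 to 130764785, plus strand) stood at 45.2, 18.01 and 17.1 CPM in knockouts, against 137, 123 and 111 CPM in controls. Of the 10 genes it had the largest excess of knockout library 1 over libraries 2 and 3 (2.58 times their mean). It also followed the muscle order in all 6 libraries, with knockouts 2 and 3 near level. Its means were 26.8 ± 16.0 CPM in knockouts and 124 ± 12.9 CPM in controls (SD, n = 3 each; log2 fold change -2.21 ± 0.37, SE).

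Of the remaining genes Net1 ran against the muscle order, and 1700025G04Rik and Car3 had their highest knockout value in library 1. The model 1700025G04Rik (ENSMUSG00000032666, chromosome 1, 151852403 to 152090125, minus strand) stood at 9.003, 8.57 and 7.22 CPM in knockouts, against 19.2, 20.8 and 19.0 CPM in controls. It was the most even gene within each group, with an SD of 11.2% of the mean in knockouts and 4.96% in controls, and a log2 fold change of -1.25 ± 0.14 (SE). Car3 (ENSMUSG00000027559, chromosome 3, 14863512 to 14872523, plus strand) was the most abundant, at 427, 313 and 321 CPM in knockouts, against 857, 654 and 942 CPM in controls. The control library with the least muscle RNA had the most Car3. Its log2 fold change was -1.21 ± 0.19 (SE). Net1 (ENSMUSG00000021215, chromosome 13, 3882018 to 3918220, minus strand) stood at 27.3, 33.1 and 37.5 CPM in knockouts, against 63.9, 62.7 and 72.7 CPM in controls. It was lowest in the knockout library with the most muscle RNA and highest in the one with the least, with a log2 fold change of -1.03 ± 0.15 (SE). Per kilobase of the longest annotated transcript, mean levels of the 10 genes ran between 0.186 (Ston2) and 211 (Car3) CPM per kilobase in knockouts and between 1.12 (Ston2) and 487 (Car3) in controls.

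Only part of the muscle order appeared in these genes. Knockout library 1 was the highest of the knockouts for 9 of the 10, all but Net1, against 45.6% of tested genes. The full knockout order of the muscle markers, library 1 over 2 over 3, held for 5 of the 10 (Speg, Svil, Tacc2, Limch1 and 1700025G04Rik) and for 19.7% of tested genes. It held for 19 of the 20 muscle markers. Together with every knockout below every control it held for 4.16% of tested genes. That is 614 of the 1596 tested genes that, like the 10, had every knockout below every control. The shares of all tested genes in this paragraph do not allow for how the 10 were chosen. Among controls the muscle order, again 1 over 2 over 3, held for 5 of the 10 (Ppp1r12b, Svil, Tacc2, Limch1 and Ank3) and for 20.8% of tested genes. Svil, Tacc2 and Limch1 kept the order in all 6 libraries, as did 1.89% of tested genes (279, all among the 1596 named above). Knockouts 2 and 3 differed little in these 3 genes. In CPM library 2 was at 1.03 (Svil), 1.06 (Tacc2) and 1.09 (Limch1) times library 3. Before scaling, their estimated counts were higher in library 3 (202, 287 and 124) than in library 2 (190, 276 and 123).

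The spread among knockout libraries was set beside that of the muscle RNA. Between knockout libraries 2 and 3 the summed muscle markers differed 7.39-fold (library 2 over library 3). For the 10 genes the same ratio lay between 0.877 (Ank3) and 1.19 (Speg), with a median of 1.01. The median of all tested genes was 1.00. Muscle markers made up only 0.0710% and 0.00939% of counts in these 2 libraries. The ratio therefore cannot separate a muscle part of a gene from its other RNA. Single markers ranged between 0.968 (Mb, inside the range of the 10 genes) and 59.1 in that ratio, with a median of 17.1. In knockout libraries 2 and 3 each of the 10 genes was above all 20 single markers as a percentage of the control mean, the highest markers being at 9.02% and 9.32% (both Mb, myoglobin). In knockout library 1 all 10 genes were at or under the 52.3% of the summed markers, as were 6.62% of tested genes, with Car3 at 52.2%. Single markers ranged widely in that library, between 26.0% (Myh1) and 110% (Tnni1), and all 10 genes fell inside that range. With Acta1 and Ckm left out of the marker sum it was at 48.4% in knockout library 1, and Car3 alone of the 10 was above it. Mb, which differs from the other markers in its course, was at 101%, 9.02% and 9.32% of the control mean in knockout libraries 1 to 3.

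**Figure D2:**
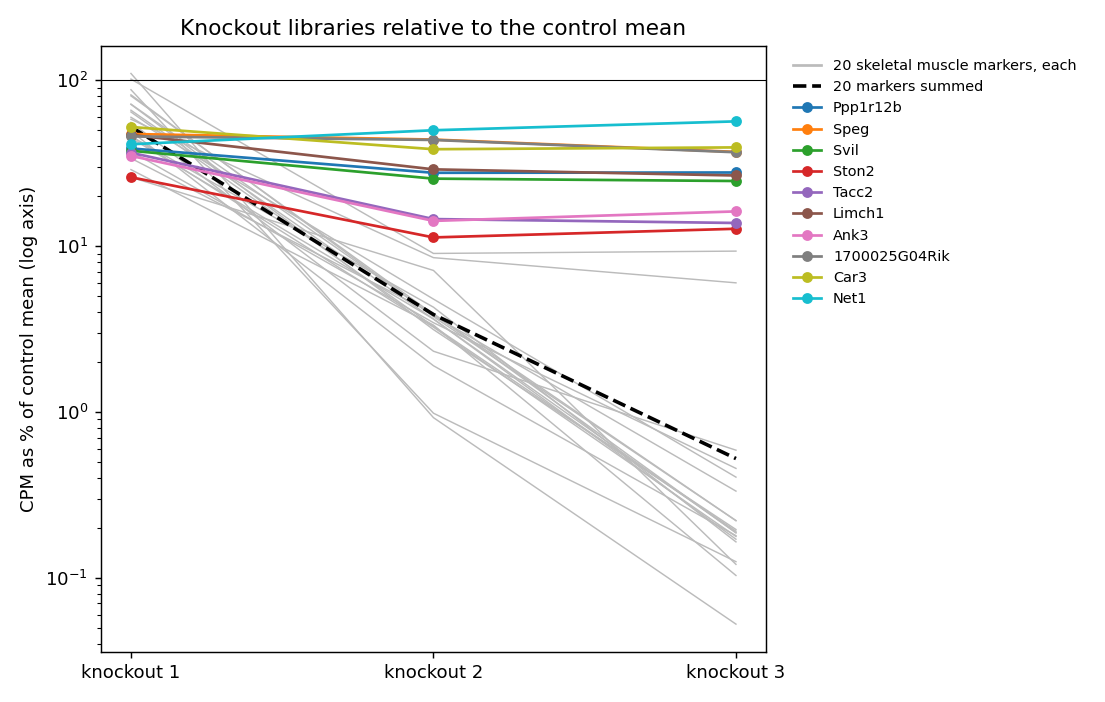
CPM as a percentage of the control mean (log axis) in knockout libraries 1 to 3 for the 10 genes (coloured), for each of 20 skeletal muscle markers (grey) and for their sum (dashed). The dashed line drops to 52.3%, 3.87% and 0.523% in the 3 libraries, while the 10 genes stay between 11.3% and 56.4%, above every grey line in libraries 2 and 3.

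To put the muscle share and the genotype side by side, a straight line of CPM on muscle marker share was drawn through the 3 knockout libraries and extended to the mean control share of 1.93%. The line rests almost wholly on knockout library 1 and carries no error estimate. It reached 38.5 CPM for Ppp1r12b, against a control mean of 75.3, and 10.4 CPM for 1700025G04Rik, against 19.7. For Net1 it reached 17.9 CPM, against 66.4. Tacc2 reached 76.5 CPM, against 124, and Limch1 18.9 CPM, against 27.7. Over the 10 genes the extended value was between 26.9% (Net1) and 68.3% (Limch1) of the control mean, with a median of 54.3%, and each was below the lowest control library. The line made up 51.1% of the difference from the control mean for Tacc2 and 51.9% for Limch1, and less for the other 8. In the edgeR fit with the share of muscle markers as a covariate the log2 fold changes were nearer to 0 for all but Net1. They were -1.70 ± 0.29 for Net1, -0.95 ± 0.37 for 1700025G04Rik, -0.89 ± 0.54 for Ston2, -0.75 ± 0.42 for Car3, -0.72 ± 0.35 for Speg and -0.65 ± 0.30 for Ppp1r12b (SE). For Svil they came to -0.49 ± 0.35, for Limch1 -0.39 ± 0.34, for Ank3 -0.33 ± 0.39 and for Tacc2 -0.25 ± 0.34, with SEs close to or above the values of the last 3. In that fit 0 of the 10 were called (0 of 14767 tested genes were called lower, 798 at an unadjusted p under 0.05). With the log2 summed muscle marker CPM as a covariate the log2 fold changes lay between -1.91 ± 0.39 (Ston2) and -0.95 ± 0.24 (Car3).

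**Figure D3:**
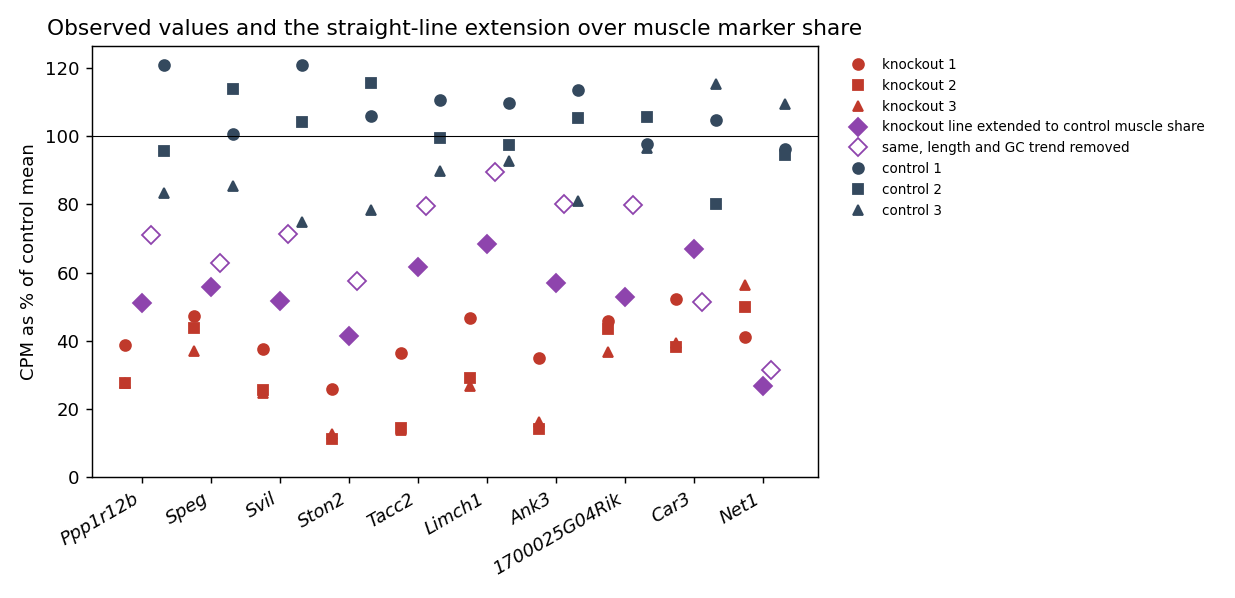
CPM as a percentage of the control mean for each of the 10 genes: the 3 knockout libraries (red), the knockout straight line extended to the control muscle share (purple, filled; open with the transcript length and GC trend removed) and the 3 control libraries (blue). Each filled diamond lies below the lowest blue point of its gene; the open diamonds are nearer to the controls for all genes but Car3, with a median of 71.2% against 54.3%.

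Transcript length moved with knockout library 1. Of the 10 genes 8 have a longest annotated transcript over 5 kb, with a median of 8934.5 bases against 3250 for tested genes; the exceptions are Net1 (3871 bases) and Car3 (1679 bases). Length and GC content accounted for 21.9% of the variance of deviations in knockout library 1 and for 1.35% to 5.59% in the other libraries. The 805 tested genes with a longest transcript over 8 kb had a median of 77.7% of the control mean in knockout library 1, and 14.2% of them had every knockout below every control. With the trend removed the 10 genes lay between 39.1% (Ston2) and 62.8% (1700025G04Rik) of the control mean in knockout library 1, with a median of 49.8%, and 8 of the 10 were at or under 60% in the knockout libraries, all but 1700025G04Rik and Net1, against 2.03% of tested genes with the trend removed. The median of the 20 muscle markers was then 53.3% in knockout library 1, with 7 of the 10 genes under it and Speg, Limch1 and 1700025G04Rik above it. The extended line then reached between 31.5% (Net1) and 89.5% (Limch1) of the control mean, and was still below the lowest control library for each gene. That correction moved the median log2 fold change of all genes to 0.12. Car3, the shortest of the 10, was lower in knockout library 1 after it (46.9%) than before (52.2%).

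**Figure D4:**
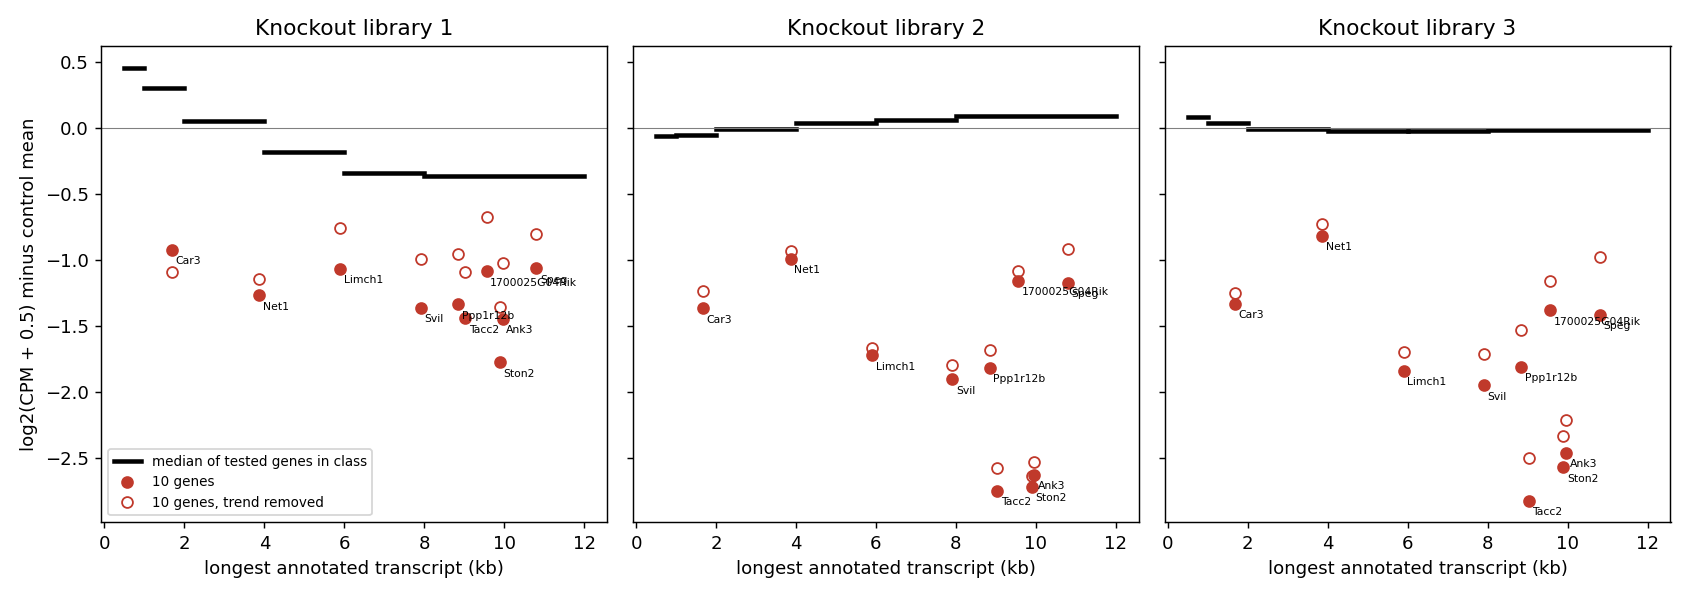
Difference of log2(CPM + 0.5) from the control mean against the length of the longest annotated transcript in kb, one panel per knockout library. Black bars are medians of tested genes in 6 length classes (the outer bars are drawn to arbitrary ends), filled points the 10 genes and open points the same genes with the length and GC trend removed; the bars slope down to -0.36 in knockout library 1 only, and the 10 genes lie below them in each panel.

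The following calls are of the genotype difference that chose the 10 genes, so nothing about them is read from the calls or from the shares of tested genes beside them. In the fit over all genes 5 genes were called lower (0.0339% of those tested) and 4 higher (0.0271%) at a Benjamini-Hochberg adjusted p under 0.05, and Ppp1r12b and 1700025G04Rik were 2 of the 5. DESeq2 called all 10 lower (1.87% of tested genes), as did limma-voom (0.183%) and edgeR without knockout library 1 (5.35%). Knockout library 1 alone against the 3 controls, where the spread comes from the controls only, also called all 10 lower (1.79%). Without a filter on low counts edgeR called all 10 (2.45%). With any other single library left out, edgeR called 0 of the 10, where 774 to 1011 genes were lower at an unadjusted p under 0.05. The share of tested genes called lower was then 0.00656% without knockout 2, 0.0132% without knockout 3, and 0.00665%, 0.0066% and 0.0132% without controls 1 to 3. Other scalings called 2 of the 10 (RLE factors), 3 (upper-quartile factors, 0.0406%, with Speg) and 4 (scaling without mitochondrial and the most abundant genes, 0.0474%, with Speg and Ston2). A floor of 1 CPM called 2 (0.0371%), the replicate block 1, Ppp1r12b (0.0135%), the log2 muscle marker CPM as a covariate 1, Net1 (0.0677%), and the length and GC trend as an offset 0 (0.0271%, with 951 genes lower at an unadjusted p under 0.05).

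Related genes were listed by family and not by how they moved. Of 105 such genes, 92 were tested and 0 were called in either direction by edgeR or limma-voom, while DESeq2 called 4 lower, Ppp1r14c, Jph1, Pdlim5 and Sptb, against 1.87% of all tested genes, and 0 higher. At an unadjusted p under 0.05 in edgeR 15 were lower and 1 higher, against 7.6% and 2.87% of all tested genes. Their median log2 fold change was -0.05, against 0.01 for all tested genes. In the myosin phosphatase list 12 of 19 tested genes had a positive and 7 a negative log2 fold change (median 0.08). Its genes with the smallest p were Ppp1r14c, an inhibitor of the phosphatase (-2.31), and the myosin light chain kinases Mylk4 (-2.87) and Mylk2 (-2.26). Ppp1r14c stood at 3.19, 0.522 and 0.475 CPM in knockouts, against 8.66, 7.22 and 4.69 CPM in controls. In knockouts 2 and 3 Ppp1r14c rested on few reads, where 3 counts are 0.196 and 0.178 CPM, so its evenness there cannot be judged. It was at 7.61% and 6.93% of the control mean in them, against 27.6% and 27.7% for Ppp1r12b. Mylk2 stood at 49.1, 2.42 and 0.178 CPM in knockouts, against 85.1, 86.6 and 74.3 CPM in controls, in the manner of the muscle markers.

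The list of triad and giant sarcomere proteins around Speg had a median log2 fold change of -2.18, with 10 of 12 negative. Jph1, which holds the triad membranes together, stood at 19.1, 6.05 and 4.10 CPM in knockouts, against 54.3, 44.6 and 35.9 CPM in controls. Cavin4, a muscle caveola protein, had -2.41 and Ryr1, the calcium release channel, -3.22. Ryr1 stood at 133, 15.4 and 0.476 CPM in knockouts, against 487, 530 and 365 CPM in controls, so Speg and Ryr1 were both lower in knockout 1 but far apart in knockout 3. Among ankyrins and spectrins 4 of 9 were positive (median -0.09). Sptb, the beta spectrin of red cells and muscle (-3.21), and Ank1 (-2.19) had the smallest p, with Ank1 at 24.2, 2.35 and 1.96 CPM in knockouts, against 52.1, 42.7 and 34.2 CPM in controls. Dst, a giant linker protein, had -0.41.

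In the gelsolin and villin family around Svil 4 of 5 were negative (median -0.45), with Gsn at -0.68, Avil at -2.27 and Capg at -0.45. Avil rested on few reads, at 1.15, 0 and 0.178 CPM in knockouts, against 1.94, 2.01 and 2.41 CPM in controls. Among LIM domain and related proteins 9 of 12 were negative (median -0.53). Pdlim5 stood at 77.7, 35.9 and 34.0 CPM in knockouts, against 130, 98.9 and 90.1 CPM in controls, and Lmo7 had a log2 fold change of -0.53 and Mical1 of -0.69. The stonin and AP2 list was balanced, with 4 of 9 positive (median -0.0038); Ston1, the paralog of Ston2, had -0.56, Itsn1 -0.35 and Ap2s1 0.49. Of the coiled-coil family 1 of 4 was positive (median -0.14), with Tacc1 at 0.10, Tacc3 at -0.33 and the microtubule polymerase Ckap5 at -0.28. Carbonic anhydrases other than Car3 were positive in 7 of 9 (median 0.26), those with the smallest p being Car13 (0.32), Car11 (0.39) and Car4 (0.26). RhoA and its exchange factors other than Net1 were positive in 8 of 14 (median 0.07), with Rhob at 0.24, Arhgef2 at 0.30 and Ect2 at -1.06. Ect2 also rested on few reads, at 0.474, 0.391 and 0.713 CPM in knockouts, against 1.12, 1.26 and 0.938 CPM in controls.

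Markers of other cells that the depot holds were compared in the same way. The 10 fibroblast and progenitor markers all had a negative log2 fold change (median -0.71), none called by edgeR. At an unadjusted p under 0.05 in edgeR 8 were lower, against 7.6% of all tested genes. DESeq2 called 4 lower, against 1.87% of all tested genes. The 10 markers summed to 531, 366 and 326 CPM in knockouts, against 823, 554 and 757 CPM in controls. Of 15 smooth muscle and pericyte markers 10 were negative (median -0.21), with summed CPM of 870, 683 and 663 in knockouts, against 1081, 1057 and 1055 in controls. As a percentage of the control mean these sums were 74.7%, 51.5% and 45.8% for fibroblasts and 81.7%, 64.2% and 62.3% for smooth muscle in knockout libraries 1 to 3, each highest in library 1. Des, the desmin gene, which striated muscle also uses, carried most of the smooth muscle difference, at 341, 51.5 and 43.7 CPM in knockouts, against 422, 422 and 372 CPM in controls. With Des left out, a choice made after the values were seen, the other 14 summed to 80.2%, 95.9% and 94.0% of the control mean, and library 1 was then the lowest. Rgs5 was the largest part of that sum, at 246, 370 and 357 of 529, 632 and 619 CPM in knockouts. Single genes of the 14 differed widely in knockouts 2 and 3, between 12.7% and 9.56% (Synpo2) and 134% and 129% (Rgs5) of the control mean. Pericyte markers went both ways, with log2 fold changes of 0.23 for Rgs5, 0.10 for Pdgfrb and 0.004 for Notch3. Cspg4 had -0.14 and Mcam -0.36. Macrophage and leukocyte markers were at 117%, 59.0% and 53.7%, endothelial markers at 96.5%, 114% and 101%, and Schwann and nerve markers at 99.0%, 87.0% and 94.1%. Brown adipocyte markers were at 133%, 120% and 132%. The part of these cell types in the levels of the 10 genes was not tested.

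The tested genes nearest in pattern to the median of the 10 were found by the root mean square distance, over the 3 knockout libraries, of log2(CPM + 0.5) minus the control mean, among 9427 named genes with a mean of at least 5 CPM. The nearest was Slc7a2, a transporter of cationic amino acids, at a distance of 0.15, with 2.71 ± 0.87 CPM in knockouts and 9.68 ± 2.52 CPM in controls (SD, n = 3 each). Aebp1, a matrix protein of connective tissue (0.20), stood at 9.33 ± 3.17 CPM in knockouts and 26.2 ± 4.50 CPM in controls. Satb1, a chromatin organiser (0.21), stood at 3.95 ± 1.74 CPM in knockouts and 13.6 ± 1.89 CPM in controls, and Cited2, a transcriptional coregulator (0.21), at 4.83 ± 1.31 and 13.6 ± 1.17 CPM. The next were Retreg1, a receptor for turnover of the endoplasmic reticulum (0.25), Prkab2, a subunit of AMP-activated kinase (0.25), Ppp2r3a, a regulatory subunit of protein phosphatase 2A (0.27), and Reep1, which shapes the endoplasmic reticulum (0.27). Each of these 8 had every knockout below every control (10.8% of tested genes). That nearly follows from how they were found, so nothing is read from it. Of the 10 genes themselves Ppp1r12b was nearest to their median (0.03) and Tacc2 farthest (0.81), which shows how far the group differs within itself.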

How the data were processed

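Per the labels' protocols, libraries were paired-end and polyadenylated RNA was selected (NEBNext Ultra II). Salmon, StringTie, edgeR and GRCm38 appear in the submitters' processing notes. Their versions and settings, the annotation and any use of strand are not stated: not given in the sources used here. Per gene, the authors deposited estimated counts, not normalized and not always whole, for 6 libraries. Gene names, lengths and coordinates are those of GENCODE vM21, GRCm38 (54131 identifiers matched, 254 not).

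Counts were rounded and tested with edgeR 4.0.16 in R 4.3.3 (filterByExpr with a minimum count of 10 and total of 15, TMM factors, quasi-likelihood F test, genotype as the only term, Benjamini-Hochberg adjustment over all tested genes, threshold 0.05). CPM use TMM-scaled library sizes. SE is the log2 fold change over the root of F. The common biological coefficient of variation was 25.2%. The labels number the libraries as replicates without saying that they came from separate animals, so p-values cover only the spread among these libraries, which may be technical. No pair within a group looked like a copy (chi-square per degree of freedom 12.0 to 68.8). A floor of 3 counts is 0.172 to 0.203 CPM, for counting error only.

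The genes and lists were chosen with earlier results of these data known. Named are all 10 genes, up to 3 genes per family list with the smallest p, 8 genes nearest in pattern and the 3 most abundant muscle markers; any other gene was singled out once its values were known. The length and GC trend was fitted per library with splines on the log2 longest transcript length and its GC content. The fit was tested on simulated data with 200 of 14489 genes changed and the same spread set for every gene. It recovered 95% of genes with a log2 fold change of 2 in size and 41% of those with 1. A gene that was not called can therefore still differ. Alternatives were RLE and upper-quartile factors, restricted scalings, DESeq2 1.42.0, limma-voom (limma 3.58.1), other filters, the replicate block, each library left out, unrounded counts, muscle covariates, the length and GC trend and knockout library 1 alone. The counts at 60% without single knockout libraries or with the trend removed and the extended line were added after seeing the data, as was the smooth muscle sum without Des.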

Additional observations from a re-analysis of the deposited data

How the results depend on the processing

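All 200 log2 fold changes of the 10 genes, over 20 alternatives each, were negative. The genes were chosen for that sign in these same libraries, so nothing is read from it. With the share of muscle markers as a covariate, Tacc2 (-0.25 ± 0.34) and Ank3 (-0.33 ± 0.39) had SEs above their values. Of the 200, 166 moved by less than the SD between replicates and 34 by more. The numbers of all tested genes called lower and higher, 5 and 4 in the edgeR fit as reported, depended on the setting. They were 276 and 31 with DESeq2, 782 and 111 without a low-count filter, 10 and 12 with log2 muscle marker CPM as a covariate, and 290 and 415 for knockout library 1 alone against the controls. With limma-voom 27 were lower (6 higher) and with the share of muscle markers as a covariate 0 were lower (3 higher; 798 lower at an unadjusted p under 0.05 in edgeR). Leaving out each library in turn gave 1 to 812 lower and 3 to 45 higher, the largest numbers without knockout library 1; the cause was not tested. The replicate number as a block gave 2 lower and 2 higher, with Ppp1r12b the only one of the 10 called. Deviations of same-numbered knockout and control libraries correlated at 0.09, 0.11 and 0.08, and each library correlated best with its own number, a hint from the data and not the design. With any 1 knockout library left out (added after seeing the data), 10 of 10 genes were at or under 60% of the control mean in the knockout libraries used. The extended line, also added then, had a median of 71.2% of the control mean with the length and GC trend removed, against 54.3%. Depth limits Ston2 and Ank3, which had 19.1 to 42.5 and 48.0 to 114 estimated counts in knockouts.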
